A study of Mus musculus with 8 samples.

Results

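Neurotransmitter receptors let an astrocyte detect transmitter released by neurons near it. The genes described here are those of the ionotropic and metabotropic glutamate receptors, the GABA and glycine receptors, and the receptors for acetylcholine, noradrenaline, serotonin, dopamine and extracellular nucleotides. They were picked out by gene symbol, a rule that uses no measured value, although the set was proposed with earlier results of these data known. They number 117 of the 39179 gene identifiers counted. One of them, Chrna1os, is not a receptor but an antisense RNA annotated at the locus of the nicotinic subunit Chrna1, and was taken in by its symbol. Enough reads for a test were present for 55 of the 117, and 52 reached at least 1 CPM in at least 4 libraries. CPM is a count per 1000000 gene reads of the library, after the library size is scaled by the TMM method.

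Ionotropic receptors are ion channels assembled from several subunits, so the mix of subunits sets which ions pass and how long the channel stays open. Metabotropic receptors act through G proteins instead. In astrocytes, receptors coupled to Gq release calcium from internal stores, while those coupled to Gi or Gs lower or raise cyclic AMP. Astrocytes are known for metabotropic glutamate, GABA-B, adrenergic and P2Y nucleotide receptors, and also carry AMPA, kainate and GABA-A channels.

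The libraries came from mouse spinal cord astrocytes collected by flow sorting for the Aldh1l1-GFP reporter, on postnatal days 12 to 14, in a mixed Swiss-Webster strain. The 4 control libraries (S1, S2, S6 and S7) are labelled wild-type and were cre-negative; the 4 conditional knockout (cKO) libraries (S3, S4, S5 and S8) came from animals homozygous for floxed Kir4.1 alleles that carried Aldh1l1-cre. Both groups carried the Aldh1l1-GFP reporter, and the labels do not say whether the controls carried floxed alleles. The gene of Kir4.1, a potassium channel of the inward rectifier class, is Kcnj10, and the comparison asks how its loss from astrocytes goes with their gene expression. Values of single libraries are always listed in the order in which the libraries are named above. Each group is described as 4 biological replicates, without a statement on whether a library was made from 1 animal or several. Because both cre and the sort use Aldh1l1, any other cell with Aldh1l1 activity would be included in each group.

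The labelled cell type and genotype were checked first. Kcnj10 was at 1181, 2305, 1856 and 1937 CPM in the controls and at 35.6, 27.2, 37.6 and 35.4 CPM in the cKO libraries. It fell by 5.74 on the log2 scale (SE 0.25, edgeR quasi-likelihood adjusted p = 7.52e-08), to 1.87% of the control mean. The libraries held between 13892736 and 25065686 gene reads, in which 3 counts correspond to 0.218 and 0.128 CPM. The summed level of 14 astrocyte markers was 17815 to 26600 CPM in the controls and 20558 to 25037 CPM in the cKO libraries, and 2 of the 14 (Aqp4 and Aldh1l1) passed the test, both higher. Another astrocyte marker, Ntsr2, was lower at an unadjusted p under 0.05. Markers of other cell types summed to lower levels, and none of them passed the adjusted threshold. The 14 neuronal markers summed to 95.3 to 119.7 CPM in controls and 59.04 to 119 CPM in cKO libraries. The lowest of them was Chat, which defines cholinergic neurons, with a highest value of 0.0474 CPM. Of the 12 neuronal markers tested, 2 were lower at an unadjusted p under 0.05, and none was higher. Among all genes tested, 4.77% were lower at this p. These 2 markers were Snap25 (mean 26.8 CPM in controls and 16.9 CPM in cKO libraries) and Gad2 (13.4 and 3.16 CPM). Their log2 fold changes were -0.67 (SE 0.27) and -2.09 (SE 0.54). The median log2 fold change of the tested neuronal markers was -0.44, and only cKO S5 summed to as much as the controls. The 12 oligodendrocyte markers summed to 1572 to 3207 and 1055 to 2557 CPM, with 3 of 12 lower and a median of -0.46. The 8 markers of oligodendrocyte precursor cells summed to 637 to 1898 CPM in controls, highest in S7, and to 705 to 875 CPM in cKO libraries, with 5 of 8 lower and a median of -1.06. Fibroblast markers (7) summed to 122 to 615 and 98.7 to 172 CPM, with 2 of 7 lower, 1 higher and a median of -1.62. Endothelial markers (9) summed to 47.2 to 70.6 and 23.8 to 58.4 CPM, with 2 of 9 lower and a median of -0.76. The 11 microglial markers summed to 28.6 to 47.2 and 37.6 to 62.5 CPM, with none of 9 tested past an unadjusted p of 0.05, and the same held for the tested mural, ependymal, Schwann cell and erythroid markers. The part of any of these cell types in the receptor values was not tested. No marker of these lists was at 0 in all libraries.

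Levels of different receptor genes were compared per length, as CPM divided by kilobases of merged exons (RPKM). Gabbr1, the GABA-binding subunit of the GABA-B receptor, was at the highest control level (58.5 ± 8.73 RPKM, SD, n = 4), followed by Adra2a, a Gi-coupled noradrenaline receptor, at 51.9 ± 11.3 RPKM. These SDs overlap, so their order is not set by these libraries. Gabbr2, the partner of Gabbr1 that couples to the G protein, was at 24.6 ± 9.61 RPKM. Gria4, an AMPA subunit, was at 24.4 ± 1.02 and Gabrg1, a GABA-A gamma subunit, at 23.3 ± 3.88 RPKM, so these neighbours also lay within their spread. P2ry1, the Gq-coupled ADP receptor, was at 18.1 ± 5.62 RPKM. Grm3, a Gi-coupled metabotropic glutamate receptor, was at 14.9 ± 1.62 and Gria2 at 13.9 ± 1.02 RPKM. The SDs of P2ry1, Grm3 and Gria2 overlap, so their order is not set either. Grin2c, an NMDA subunit, was at 12.2 ± 4.04, Grik5, a high-affinity kainate subunit, at 11.9 ± 0.678 and Grm5, the Gq-coupled metabotropic glutamate receptor, at 10.2 ± 1.52 RPKM, again within their spread. On the RPKM scale the genes at the top thus included metabotropic receptors for glutamate, GABA, noradrenaline and ADP. Subunits of AMPA, kainate, NMDA and GABA-A channels were also among them on this scale. The order depends on the length used. On the authors' deposited FPKM values 6 of the top 10 genes were shared (Spearman rho 0.928 across 55 genes, which are not independent replicates). There Gabrb1, Grm5 and Gria1 ranked higher, at 31.0, 29.8 and 26.1 FPKM in controls. The kainate gene Grik5 and the NMDA gene Grin2c lay below these, at 23.1 and 20.4 FPKM.

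**Figure D1:**
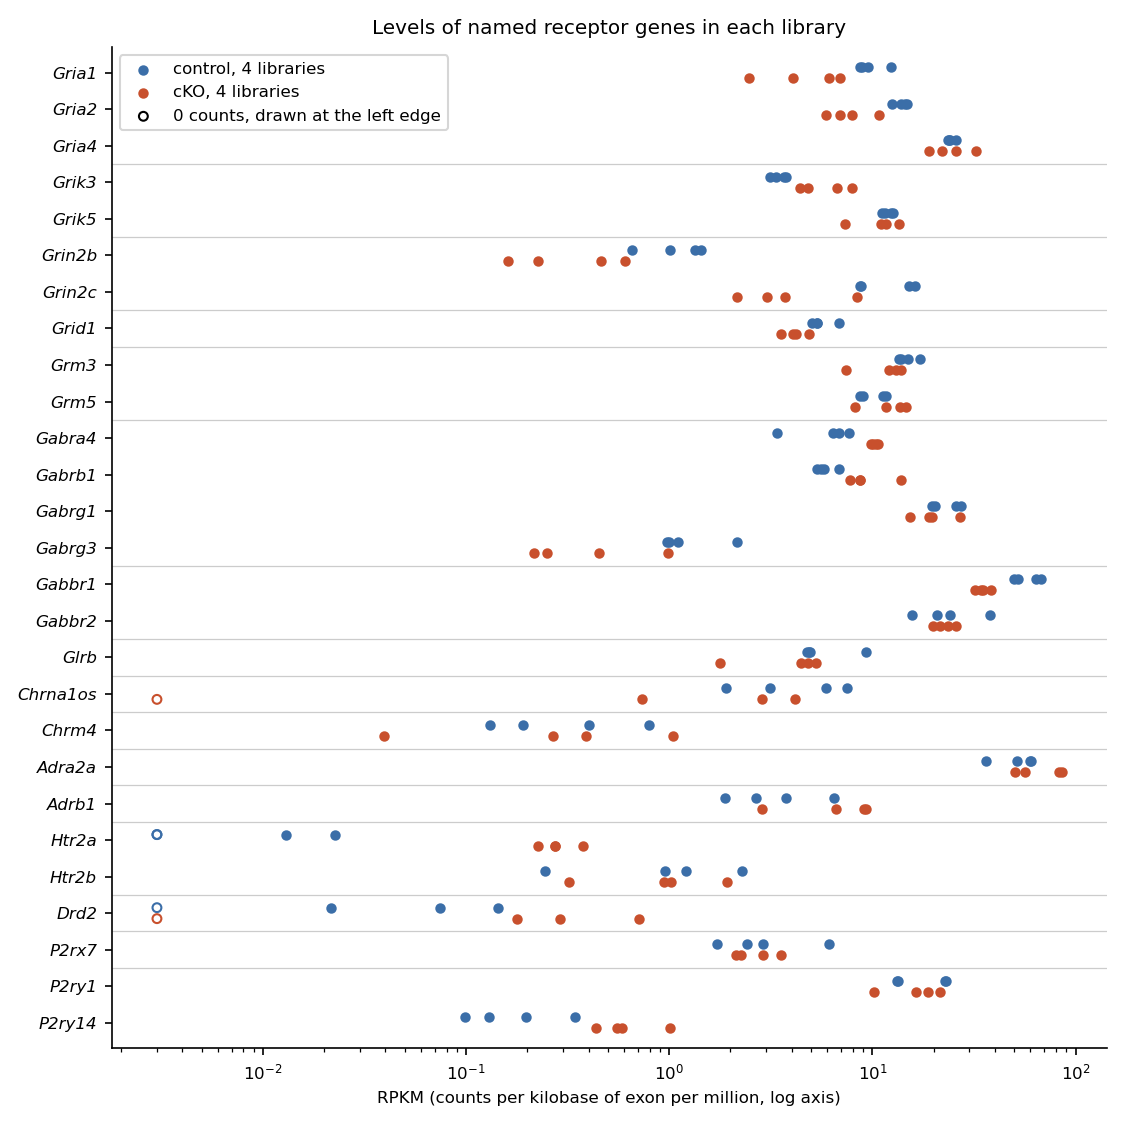
RPKM of the named receptor genes in each library on a log axis, with control and cKO libraries as separate colours. Gabbr1 and Adra2a lie furthest to the right, and open circles at the left edge mark libraries with 0 counts, 2 of them controls for Htr2a.

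At the other end, 62 receptor genes were not tested, and 14 of them had no count in any library. These 14 were Grm6, Gabra6, Gabrp, Glra2, Chrna6, Chrna9, Chrnd, Htr1f, Htr3b, Htr5b, Drd3, Drd5, P2rx2 and P2ry10, for which 3 counts set the limit given above. No dopamine receptor gene, 1 of 5 muscarinic genes, 7 of 17 nicotinic entries and 4 of 14 serotonin receptor genes had enough reads for a test. Both nicotinic numbers include the antisense RNA Chrna1os. The highest value of an untested gene was 6.097 CPM, for Htr5a in control S6.

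In the cKO libraries no receptor gene passed the threshold, an adjusted p of 0.05 over all 14757 genes tested with edgeR, where 0.318% of all genes did (0.115% lower and 0.203% higher). At an unadjusted p under 0.05, 13 of the 55 tested receptor genes stood apart (23.6%, against 9.81% of all genes tested). Of these, 7 were lower in the cKO libraries (Gria1, Gria2, Grin2b, Grin2c, Grid1, Gabrg3 and Gabbr1; 4.77% of all genes were lower at this p). The other 6 were higher (Grik3, Gabra4, Gabrb1, Adrb1, Htr2a and P2ry14; 5.03% of all genes). For 11 of the 55 (20.0%) the 4 control values and the 4 cKO values did not overlap, against 6.34% of all genes tested: 6 were lower and 5 higher in the cKO libraries (2.94% and 3.39% of all genes). In the authors' deposited table, which used DESeq2, 8 of 45 receptor genes with an adjusted p were under 0.05, where 2.87% of all its genes were. DESeq2 run here on the counts called 9 of 61 (2.49% of all genes), and limma-voom called 1 of 55, Gabbr1 (0.325% of all genes). Htr2a, counted among the 13, the 11 and the 9 called by DESeq2, reached the minimum of the edgeR low-count filter in the cKO libraries only. It had to differ to be tested there, and it supports none of these counts. Among genes that reached the minimum in a library of each group, 12 of 54 receptor genes had an unadjusted p under 0.05 (9.69% of all such genes), and 10 of 54 did not overlap (6.196%). Over the 55 genes the median log2 fold change was -0.13, with 33 below 0 and 22 above, and over all genes tested it was -0.017. The tested receptor genes were longer, with a median gene body of 91.6 kb against 22.8 kb for all genes tested with an annotated length. The part of gene length in the shares above was not tested.

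**Figure D2:**
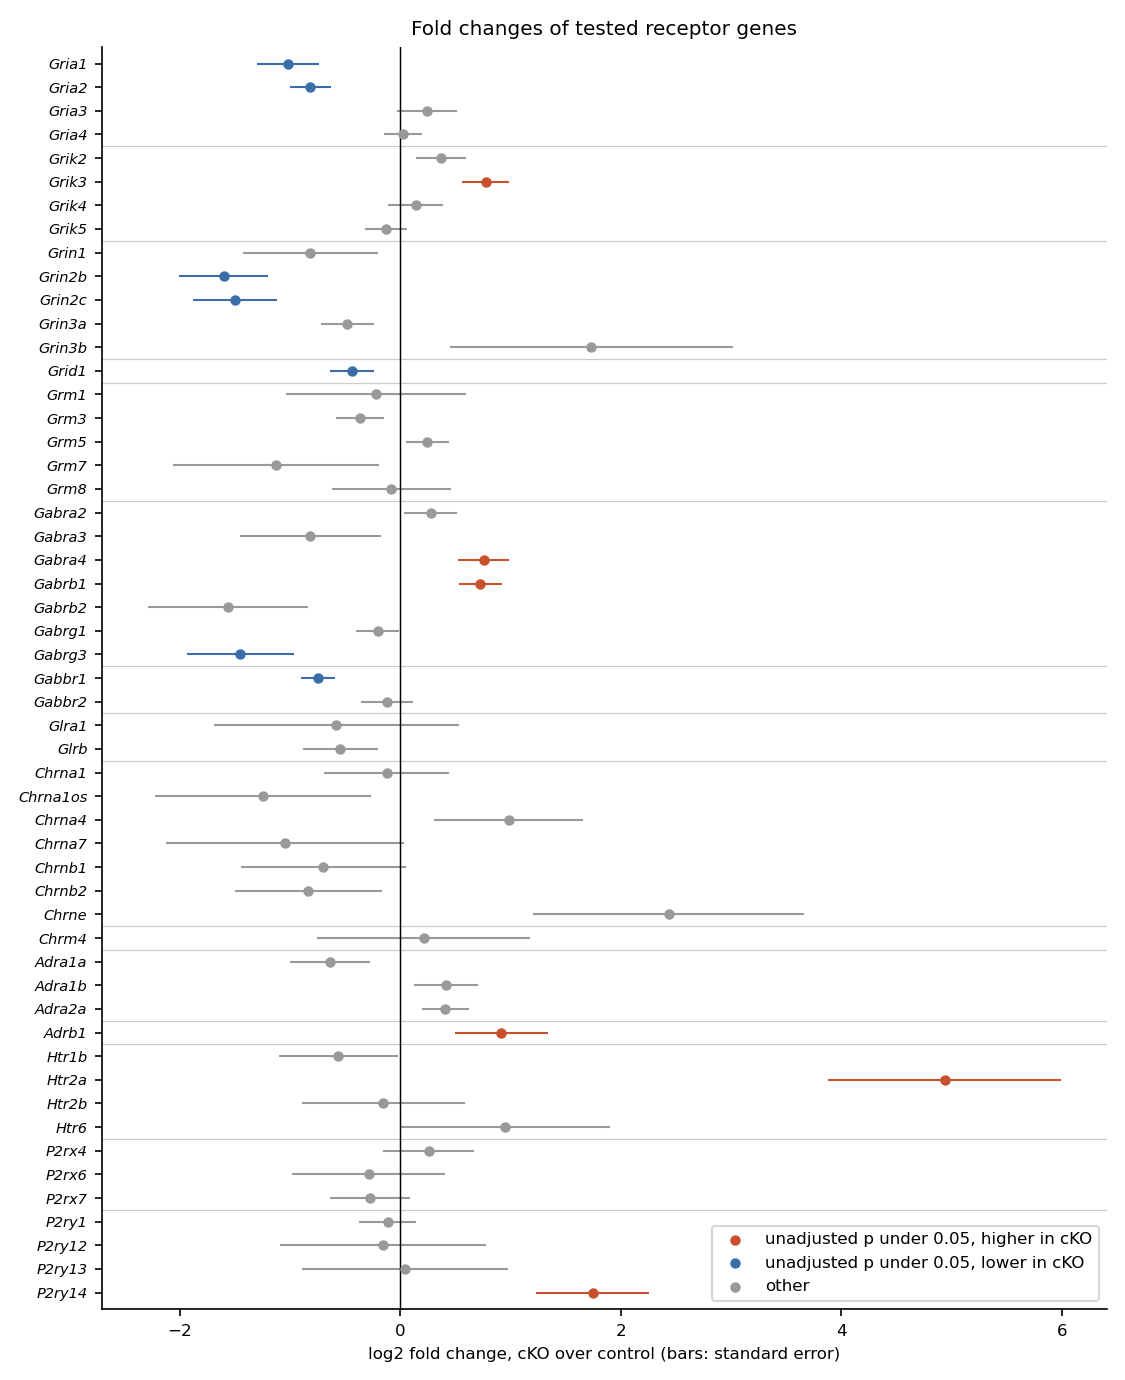
Log2 fold change of tested receptor genes, cKO over control, with its standard error as bars and genes ordered by family; coloured points have an unadjusted p under 0.05. Of the 13 coloured genes, 7 lie left of 0 and 6 right of it, and none passed an adjusted p of 0.05 with edgeR. The fitted value of Htr2a depends on the prior count, since its controls are at or near 0.

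AMPA receptors are the fast glutamate channels, built from Gria1 to Gria4, and Gria2 in its edited form keeps calcium out. Gria2 was at 225, 214, 231 and 195 CPM in the controls and at 167, 92.2, 124 and 108 CPM in the cKO libraries. Every cKO library lay below every control, with S3 nearest to them. The group values were 216 ± 15.8 and 122.7 ± 31.996 CPM (SD, n = 4), a log2 fold change of -0.82 (SE 0.19, edgeR adjusted p = 0.101). Gria1 was at 52.5, 74.97, 53.9 and 57.8 CPM in the controls and at 36.8, 24.4, 14.9 and 41.7 CPM in the cKO libraries. These groups also did not overlap, with cKO S5 the lowest, and the log2 fold change was -1.02 (SE 0.28, edgeR adjusted p = 0.205). Gria4 differed little, at 154 ± 6.42 and 156 ± 35.9 CPM (log2 fold change 0.021, SE 0.17, edgeR adjusted p = 0.981), and its sign turned without cKO S8 (-0.13). The authors' deposited table gives log2 fold changes of -0.76 for Gria2 (adjusted p = 0.0048) and -0.88 for Gria1 (adjusted p = 0.034), both past 0.05.

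The share of each subunit in the summed AMPA RPKM shows the same genes as a mix. Gria1 made up 17.0 to 23.9% in the controls and 7.38 to 14.6% in the cKO libraries. Gria4 made up 46.2 to 50.6% and 52.6 to 67.6%, and Gria2 25.3 to 29.8% and 14.4 to 25.7%. The ranges of Gria1 and Gria4 did not overlap, and those of Gria2 did. On the deposited FPKM scale the ranges of both overlapped, at 19.5 to 34.1% and 4.57 to 24.2% for Gria1 and at 30.03 to 33.9% and 33.6 to 48.6% for Gria4. The sum itself was 50.6 ± 1.137 RPKM in controls and 40.4 ± 6.27 RPKM in cKO libraries.

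Kainate receptors pair a low-affinity subunit (Grik1 to Grik3) with the high-affinity Grik4 or Grik5. Grik3 was at 33.7, 30.1, 28.2 and 32.8 CPM in the controls and at 59.8, 43.3, 70.96 and 39.7 CPM in the cKO libraries. All cKO libraries lay above the controls and differed more among themselves than the controls did. The log2 fold change was 0.77 (SE 0.21, edgeR adjusted p = 0.2003), and the authors' deposited table gives 0.71 (adjusted p = 0.0342). Grik5, the kainate gene with the highest level per length, was at 61.6 ± 3.504 and 56.3 ± 13.3 CPM (log2 fold change -0.13, SE 0.19), which turned to 0.024 without cKO S5. Grik2 and Grik4 also missed an unadjusted p of 0.05, at log2 fold changes of 0.37 and 0.14.

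NMDA receptors need Grin1, which binds the co-agonist glycine, together with a glutamate-binding Grin2 subunit or a Grin3 subunit. Grin2c was at 76.4, 81.8, 44.4 and 43.8 CPM in the controls and at 42.3, 18.6, 15.2 and 10.9 CPM in the cKO libraries. The groups did not overlap, but cKO S3 lay just below control S7. The log2 fold change was -1.50 (SE 0.38, edgeR adjusted p = 0.156). Grin2b was at 25.1, 35.5, 33.1 and 16.3 CPM in the controls and at 5.62, 15.01, 3.99 and 11.4 CPM in the cKO libraries. Its groups were also apart, by the small gap between control S7 and cKO S4, with a log2 fold change of -1.60 (SE 0.40, edgeR adjusted p = 0.153). In the authors' deposited table the adjusted p is 0.0102 for Grin2c (log2 fold change -1.18) and 0.00796 for Grin2b (-1.23).

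The edgeR calls of Gria2 and Grin2c turned on 1 library: without cKO S3 their adjusted p was 0.0408 and 0.0224. Over all alternatives it ranged from 0.00565 to 0.481 for Gria2 and from 0.0105 to 0.518 for Grin2c. Grin1, required for an NMDA receptor, was at 1.52, 2.91, 8.02 and 5.83 CPM in the controls and 1.48, 1.81, 4.79 and 2.31 CPM in the cKO libraries. Grin1 held 0.726 to 5.01% of the summed NMDA RPKM in controls and 1.09 to 8.87% in cKO libraries, while Grin2c held 53.4 to 73.3% and 33.5 to 60.2%. The glycine-binding Grin3a held 17.96 to 32.5% and 31.01 to 49.4%, and Grin2b 4.601 to 8.07% and 1.62 to 7.15%. These shares depend on the length scale: on deposited FPKM Grin2c held 33.05 to 51.9% and 17.7 to 47.8%, and Grin2b 23.1 to 44.3% and 7.13 to 27.7%. On either scale the ranges of both subunits overlapped between the groups. The summed NMDA level was 18.6 ± 3.85 RPKM in controls and 9.11 ± 3.88 RPKM in cKO libraries, and these ranges were 119 to 169.8 and 47.02 to 106 when summed as CPM.

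Delta receptors such as Grid1 resemble glutamate channels but are known as synapse organizers. Grid1 was at 30.1, 31.7, 31.9 and 41.02 CPM in the controls and at 24.1, 29.1, 21.03 and 25.1 CPM in the cKO libraries. The groups were separated by about the distance from control S1 to cKO S4, with a log2 fold change of -0.44 (SE 0.20, edgeR adjusted p = 0.508). Among metabotropic glutamate receptors, 5 of 8 were tested and none had an unadjusted p under 0.05. Grm3 was at 41.4, 42.4, 45.7 and 52.3 CPM in controls and at 36.6, 42.00, 22.6 and 39.9 CPM in cKO libraries (log2 fold change -0.37, SE 0.22, edgeR adjusted p = 0.619). Grm5 was at 92.6, 88.8, 116 and 119 CPM and at 84.1, 119, 139.9 and 149.9 CPM (log2 fold change 0.24, SE 0.20, edgeR adjusted p = 0.735). For both, the groups overlapped.

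GABA-A receptors are chloride channels, usually built from alpha, beta and gamma subunits. Here Gabrg1 held 40.1 to 51.3% of the summed GABA-A RPKM in controls and 29.7 to 45.9% in cKO libraries. Gabrg1 itself was at 183 ± 30.5 and 159 ± 38.5 CPM (log2 fold change -0.21, SE 0.19, edgeR adjusted p = 0.776). Gabrb1 was at 94.7, 74.03, 80.3 and 77.5 CPM in controls and at 108, 120.2, 191 and 120.1 CPM in the cKO libraries. Its neighbour Gabra4 was at 46.6, 39.02, 20.5 and 41.9 CPM and at 60.01, 65.1, 63.3 and 61.4 CPM. For each gene every cKO library lay above every control. Gabra4 varied least within the cKO group, and Gabrb1 was highest in cKO S5. The log2 fold changes were 0.72 for Gabrb1 (SE 0.20, edgeR adjusted p = 0.192) and 0.75 for Gabra4 (SE 0.23, edgeR adjusted p = 0.257). The authors' deposited table calls Gabrb1 (log2 fold change 0.67, adjusted p = 0.0371) and not Gabra4.

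Gabrb1 (GRCm38 chr5:71658113-72149037, plus strand) and Gabra4 (chr5:71569749-71658308, minus strand) start head to head, and their annotated 5′ exons share 196 bases. The strand used in counting is not given in the sources used here, so reads of that stretch cannot be assigned to either gene. The share of Gabra4 in the summed GABA-A RPKM was 7.54 to 14.5% in controls and 17.4 to 20.2% in cKO libraries, and that of Gabrb1 was 10.02 to 13.0% and 14.8 to 26.9%. Neither pair of ranges overlapped, on the deposited FPKM scale either. Gabrg1 and Gabra2 lie in the same cluster on chromosome 5, and Gabra2 had a log2 fold change of 0.27 (SE 0.24).

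Gabrg3, another gamma subunit, was at 11.9, 13.1, 11.6 and 25.8 CPM in the controls and at 5.36, 2.99, 2.56 and 11.8 CPM in the cKO libraries. The groups met at one point, since cKO S8 lay just above control S6. The log2 fold change was -1.45 (SE 0.48, edgeR adjusted p = 0.313), and -0.49 on the log2(FPKM + 1) scale and -0.76 on log2(FPKM + 0.1). Gabrg3 was highest in control S7 and, among the controls, lowest in S6. Summed oligodendrocyte precursor markers were at 855, 637, 1232 and 1898 CPM in the controls and at 875, 705, 825 and 727 CPM in the cKO libraries. A link between these values was not tested. In bulk RNA, fewer cells of a type and less RNA per cell cannot be told apart.

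**Figure D3:**
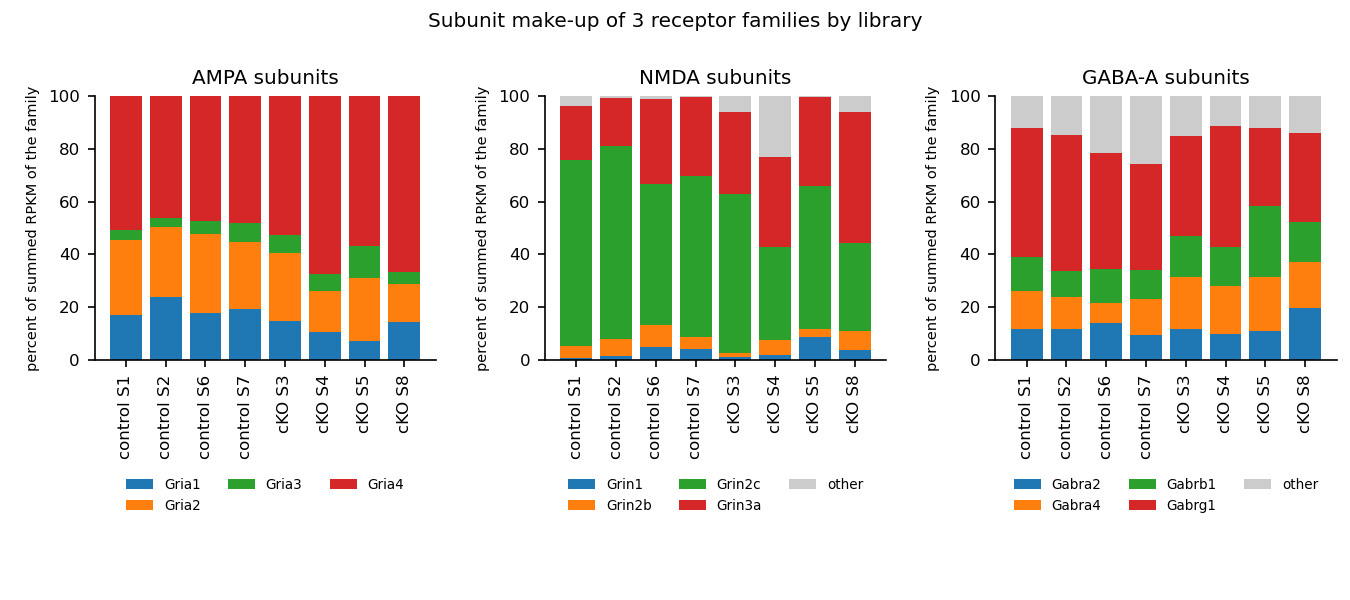
Share of single subunits, with the remaining ones in grey, in the summed RPKM of its receptor family in each library, for AMPA, NMDA and GABA-A subunits, with control and cKO libraries side by side. Gria4 takes 52.6 to 67.6% of the AMPA sum in cKO libraries against 46.2 to 50.6% in controls, and Gabra4 takes 17.4 to 20.2% of the GABA-A sum against 7.54 to 14.5%. A share depends on all subunits in the sum. The log2 fold change of Gria4 itself was 0.021 (SE 0.17), and its shares overlapped between the groups on deposited FPKM.

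GABA-B receptors are dimers of Gabbr1 and Gabbr2 that signal through Gi proteins. Gabbr1 (GRCm38 chr17:37045966-37075067, plus strand) was at 406, 388, 496 and 527 CPM in the controls and at 271, 249, 266 and 298 CPM in the cKO libraries. The groups did not overlap, and the controls spread more widely than the cKO libraries. The means were 454 ± 67.8 and 271 ± 20.6 CPM (SD, n = 4), with a log2 fold change of -0.75 (SE 0.15, edgeR adjusted p = 0.0746). Under limma-voom the adjusted p was 0.0422, under DESeq2 0.000571, and over all alternatives it ran from 0.000571 to 0.691. The authors' deposited table gives -0.72 (adjusted p = 0.000439), the lowest adjusted p of any receptor gene there. The difference was -0.44 on the log2(FPKM + 1) scale. Gabbr2 was at 138, 105, 160.3 and 255 CPM and at 134, 143, 173 and 157 CPM, so its groups overlapped, with a log2 fold change of -0.12 (SE 0.23, edgeR adjusted p = 0.908) that turned to 0.18 without control S7. Gabbr1 was 178 to 317% of Gabbr2 per length in the controls and 133 to 175% in the cKO libraries, ranges that did not overlap on RPKM but did on deposited FPKM (256 to 393% and 232 to 300.3%).

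The 3 promoters below are shown because Gabbr1 and Gria2 are the most abundant receptor genes with separate groups in the lower direction, and Gabra4 the one whose cKO values varied least in the higher direction. They are RefSeq sequences on GRCm38.p6, read 5′ to 3′ on the strand of the gene. They end just before the annotated start except for Gabra4, where the last 55 bases are left out. The Gabra4 window lies inside the annotated gene body of Gabrb1 (chr5:71658113-72149037, plus strand). Its letters are therefore not upstream sequence of Gabra4 alone. Capitals mark a GC box (GGGCGG or its complement), a CRE (TGACGTCA) or a CCAAT box.
Gabbr1 chr17:37045716-37045965 plus strand: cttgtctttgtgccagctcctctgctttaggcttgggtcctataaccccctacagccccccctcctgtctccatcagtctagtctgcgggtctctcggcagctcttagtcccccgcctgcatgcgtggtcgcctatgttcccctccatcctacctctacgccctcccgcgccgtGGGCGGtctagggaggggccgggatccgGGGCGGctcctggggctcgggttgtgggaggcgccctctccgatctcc
Gria2 chr3:80802836-80803085 minus strand: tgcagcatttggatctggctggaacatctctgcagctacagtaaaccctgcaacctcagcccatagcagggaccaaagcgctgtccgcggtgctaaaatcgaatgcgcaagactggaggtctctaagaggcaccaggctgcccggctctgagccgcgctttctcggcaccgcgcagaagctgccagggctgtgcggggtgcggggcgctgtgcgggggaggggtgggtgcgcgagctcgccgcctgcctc
Gabra4 chr5:71658364-71658558 minus strand: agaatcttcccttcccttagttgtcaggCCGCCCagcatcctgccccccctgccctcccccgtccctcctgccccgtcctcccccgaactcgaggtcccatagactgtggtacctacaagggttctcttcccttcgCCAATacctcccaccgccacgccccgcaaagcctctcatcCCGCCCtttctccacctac
Gabbr1 held 2 GC boxes, which 32.7% of 32817 RefSeq windows of that length and position held at least once on either strand. Gabra4 held 2 GC boxes and 1 CCAAT box, found in 23.8% and 27.6% of windows of its length. Gria2 held neither, and 1 E-box (CANNTG, in 66.2% of windows) that is not in capitals. No CRE was found in any of the 3 (in 1.55% of the longer and 0.771% of the shorter windows). The letters TATAAA were not in the Gabbr1 and Gria2 windows (12.4% of windows), and the Gabra4 window leaves out the bases next to the start. All were rich in G and C, at 66.0, 64.8 and 63.6%, against a median of 52.4% for the longer windows and 51.3% for the shorter. A match describes these letters only.

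Glycine receptors had 2 of 5 genes tested, and neither had an unadjusted p under 0.05. Glrb, the beta subunit that anchors the receptor, was at 22.6, 22.2, 43.3 and 22.97 CPM in the controls and at 24.7, 22.5, 8.26 and 20.8 CPM in the cKO libraries. Apart from a high control S6 and a low cKO S5 the libraries were alike, and the log2 fold change was -0.54 (SE 0.34, edgeR adjusted p = 0.640). Nicotinic subunits were low, and the nicotinic entry with the highest RPKM was the antisense RNA Chrna1os, at 4.12, 2.18, 5.27 and 1.33 CPM and at 2.91, 1.996, 0 and 0.514 CPM (log2 fold change -1.25, SE 0.98). Of the muscarinic receptors only Chrm4, coupled to Gi, was tested, at 0.547 ± 0.430 and 0.625 ± 0.618 CPM, and its sign depended on which control was left out.

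The adrenergic receptors bind noradrenaline, with alpha-1 receptors coupled to Gq, alpha-2 to Gi and beta receptors to Gs. Adra2a was at 287, 249, 175 and 293 CPM in the controls and at 244, 399, 413 and 273 CPM in the cKO libraries. The groups overlapped, with cKO S4 and S5 above all controls, and the log2 fold change was 0.41 (SE 0.22, edgeR adjusted p = 0.566). Adrb1 was at 21.9, 12.7, 9.06 and 6.35 CPM and at 30.7, 22.3, 31.4 and 9.63 CPM. Here 3 of the 4 cKO libraries lay above all controls and S8 did not, for a log2 fold change of 0.91 (SE 0.42, edgeR adjusted p = 0.505). Adra1a and Adra1b had log2 fold changes of -0.64 and 0.41, neither with an unadjusted p under 0.05.

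Htr2a, a Gq-coupled serotonin receptor (GRCm38 chr14:74640840-74709494, plus strand), was nearly absent from the controls. It had 2, 1, 0 and 0 counts in the controls and 30, 28, 27 and 49 counts in the cKO libraries, or 1.53, 1.27, 1.54 and 2.097 CPM in the cKO libraries. Each cKO library was thus above every control and above its own limit of 3 counts. With 134 counts against 3 over the groups, the ratio scaled for depth was 37.3, a value that rests on 3 control counts. Since Htr2a passed the low-count filter only through the cKO group, where it is high, its counts and ratio are given as a description, with no test. The level stayed low per length, at 0.287 ± 0.0622 RPKM in the cKO libraries. Htr2b, also coupled to Gq and at a higher level per length, was at 2.51 ± 1.81 and 2.24 ± 1.401 CPM, and its fold change of -0.16 on the log2 scale (SE 0.74) turned with single libraries left out. Htr1b and Htr6, the other tested serotonin receptors, had log2 fold changes of -0.56 and 0.95 with no unadjusted p under 0.05. Drd2, the Gi-coupled receptor with the highest RPKM among dopamine receptors, had 3, 5, 1 and 0 counts in controls and 0, 10, 13 and 42 in cKO libraries, too few for the test.

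Nucleotide receptors comprise the P2X channels, opened by ATP, and the P2Y receptors, coupled to G proteins. P2ry14, which binds UDP-glucose, was at 3.803, 2.18, 1.43 and 1.09 CPM in the controls and at 4.80, 6.08, 6.44 and 11.1 CPM in the cKO libraries. The groups did not overlap, and cKO S8 was the highest. The log2 fold change was 1.74 (SE 0.51, edgeR adjusted p = 0.246), and the authors' deposited table gives 1.23 (adjusted p = 0.0181). Its genomic neighbours P2ry12 and P2ry13, known as microglial ADP receptors, were at 0.0474 to 8.44 and 0.0947 to 6.59 CPM in the controls, and their log2 fold changes of -0.16 and 0.042 missed an unadjusted p of 0.05. P2ry1 was at 97.98, 99.4, 56.4 and 57.5 CPM and at 69.97, 80.96, 92.3 and 43.6 CPM. These groups overlapped (log2 fold change -0.12, SE 0.26, edgeR adjusted p = 0.922). P2rx7, the P2X channel with the highest level per length, was at 19.6 ± 11.6 and 16.2 ± 3.93 CPM, with control S7 the highest library.

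Several further genes had large fold changes on few reads, with wide errors. Chrne, the nicotinic subunit of the mature muscle receptor, was at 0, 1.31, 0.714 and 0 CPM in the controls and at 3.32, 2.45, 4.79 and 0.342 CPM in the cKO libraries, overlapping through cKO S8 (log2 fold change 2.44, SE 1.23, edgeR adjusted p = 0.544). Grin3b, a glycine-binding NMDA subunit, was at 2.47, 0.582, 0.2197 and 0 CPM and at 2.35, 7.39, 0.05699 and 1.03 CPM (log2 fold change 1.73, SE 1.28). Gabrb2 was at 1.52, 1.38, 3.19 and 12.2 CPM and at 1.28, 1.91, 0.969 and 2.01 CPM. Control S7 was the highest, and control S6 also lay above every cKO library (log2 fold change -1.57, SE 0.73, edgeR adjusted p = 0.512). Chrna4, a subunit of a widespread neuronal nicotinic receptor, was at 3.23, 0.364, 11.9 and 5.68 CPM and at 9.65, 6.26, 9.97 and 16.1 CPM (log2 fold change 0.98, SE 0.67). In all of these the groups overlapped. Among genes with more reads, Gria3 and Gabra2 were at 24.2 ± 7.83 and 45.3 ± 5.19 CPM in the controls and at 28.7 ± 7.94 and 54.7 ± 21.7 CPM in the cKO libraries, differences within the spread of the libraries. P2rx4, an ATP-gated channel, was at 9.600 ± 5.51 and 11.5 ± 4.602 CPM, also within the spread.

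**Figure D4:**
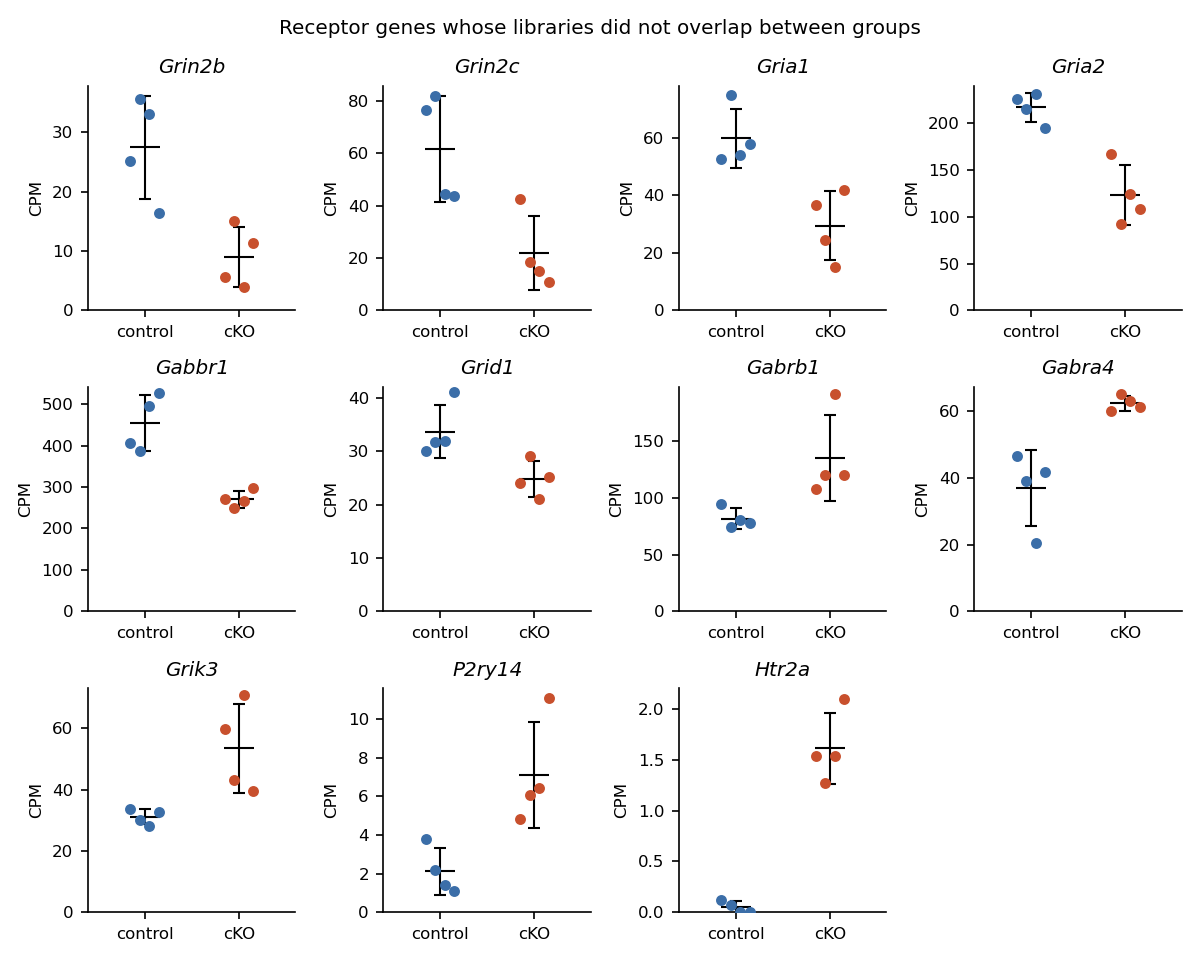
CPM in each library of the 11 receptor genes whose control and cKO values did not overlap, each panel with its own axis; points are libraries, horizontal lines group means and bars the SD. Of the 11 genes, 6 are lower and 5 higher in the cKO libraries, with Htr2a at or near 0 in all 4 controls.

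Genes that act with these receptors were counted in 6 lists, and no gene in them passed the adjusted threshold with edgeR. Of 14 tested auxiliary subunits of AMPA and kainate receptors, 4 were lower and 1 was higher when judged by an unadjusted p of 0.05, with a median log2 fold change of -0.11. Among all genes tested 4.77% were lower and 5.03% higher at this p, with a median of -0.017, which is the background for each of the lists. The most abundant of them, Shisa9, which modulates AMPA receptors, was at 121 ± 10.2 CPM in controls and 93.5 ± 13.2 CPM in cKO libraries (log2 fold change -0.37, SE 0.16). Of 18 receptor scaffolds 1 was higher and 3 lower (median -0.00022), with Lrp4 at 141 ± 8.13 and 139.5 ± 10.7 CPM. Of 24 G protein alpha subunits and effectors 1 was higher and 1 lower (median -0.14), with Itpr2, a calcium release channel of internal stores, at 243 ± 39.4 and 215 ± 26.1 CPM.

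The list of adenosine receptors and enzymes of extracellular nucleotides also held the channel Panx1 and the transporter Slc29a1. Of its 12 tested genes 3, Panx1 among them, were lower and none higher by the same measure (against 4.77% and 5.03% of all genes). The median was -0.038, and Enpp2 was at 115 ± 34.2 and 111 ± 33.6 CPM. Of 7 genes of transmitter breakdown and endogenous receptor ligands 1 was lower (median -0.019), and Dbi, the diazepam-binding inhibitor that acts at GABA-A receptors, was at 447 ± 127 and 634 ± 183 CPM (log2 fold change 0.51, SE 0.24, edgeR adjusted p = 0.518). Of 10 other astrocyte receptors coupled to G proteins 3 were lower and 1 higher (median -0.21), with Gpr37l1 the most abundant at 1465 ± 712 and 1827 ± 537 CPM. Ntsr2, a neurotensin receptor that is also one of the 14 astrocyte markers and was chosen after its values were seen, was at 873, 830.4, 478 and 518 CPM in controls and at 401, 204, 218 and 167 CPM in cKO libraries. All cKO values of Ntsr2 lay below the controls, with a log2 fold change of -1.45 (SE 0.28, edgeR adjusted p = 0.0544).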

How the data were processed

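RNA from sorted spinal cord astrocytes was read in 8 libraries, 4 control and 4 cKO, grouped by the sample titles. Per the submitters' processing notes, FastQC 0.11.4, TopHat2 2.0.11, Bowtie2 2.2.3, HTSeq 0.6.1p1, DESeq2 1.14.1, Cufflinks 2.2.1, Cuffnorm and GRCm38 were used; annotation release and strand are not given in the sources used here. The authors deposited 1 table of whole-number counts per library, FPKM values, and a DESeq2 comparison with group means of scaled counts (a signal per gene), log2 fold changes, their errors and Wald statistics (scores), and p-values. The 5 summary lines of each count table, 56.4 to 61.7% of reads, name no gene and were left out. By their values, 3 of 8 FPKM columns were closest to the counts of their namesake and the rest to another library of the same group, so the deposited FPKM were used by group.

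Counts were tested with edgeR 4.0.16 in R 4.3.3 (quasi-likelihood, TMM, filterByExpr, no covariate), adjusted by Benjamini-Hochberg over all genes tested, and the script was tested on simulated data. The log2 fold change is cKO over control. CPM use TMM-scaled library sizes, and RPKM divide them by merged exon length from GENCODE M21. Alternatives were other scalings and filters, a Xist covariate, DESeq2 1.42.0, limma 3.58.1 (voom, and log2(FPKM + 1) or log2(FPKM + 0.1)), and each library left out.

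Genes were named if their adjusted or unadjusted p was under 0.05, if their groups did not overlap at a mean of at least 1 CPM, if they had the highest level per length in their family or were among the 10 highest of all, and, in the pathway lists, if highest in a list. Other genes are given as neighbours, partners or remaining tested genes of a family, and were chosen after their values were seen. Some genes that meet this rule or entered the counts are not reported here. The rule for the members uses symbols alone, but members and lists were chosen with earlier results of these data known. Of the 55 tested genes 22 share exonic bases with another annotated gene, among the named ones Gria2, Gria4, Grin2b, Grin2c, Grid1, Gabra4 and Gabrb1, and their counts are less certain. Counting depth limits precision: the limit of 3 counts covers counting error only, and amplified reads without molecular identifiers are not independent molecules.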

Additional observations from a re-analysis of the deposited data

Results flagged for a closer look

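In 5 of the 56 groups of 4 libraries examined, 1 library lay far from the other 3 by Dixon's test; chance alone marks about 1 group in 20, or 2.8 of 56. Gria4 was at 163 CPM in control S1, with the other controls at 149 to 151 CPM. Grid1 was at 41.02 CPM in control S7, with the others at 30.1 to 31.9 CPM. Gabrg3 was at 25.8 CPM in the same library, with the others at 11.6 to 13.1 CPM. Glrb was at 43.3 CPM in control S6, with the others at 22.2 to 22.97 CPM. Gabrb1 was at 191 CPM in cKO S5, with the other cKO libraries at 108 to 120.2 CPM.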

How the results depend on the processing

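Over 17 alternatives all 13 receptor genes with an unadjusted p under 0.05 kept the sign of their fold change. These genes were picked by their p in the same libraries, so a kept sign was likely in advance and adds no support. The number of receptor genes past the adjusted threshold, 0 with edgeR, was 1 with limma-voom and 9 with DESeq2, Htr2a among them. With single libraries left out it was 0 to 2, and 11 to 15 were at an unadjusted p under 0.05. Over all genes edgeR called 47 (30 higher, 17 lower); a lax filter gave 87, a Xist covariate 28 and DESeq2 384, while leaving out single libraries gave 4 to 45, the fewest without cKO S4. Scaling to library totals gave 48 higher and 14 lower, and moved the median log2 fold change of all genes by 0.11, to 0.091, and that of the receptor genes to -0.026. The cause of these differences was not tested.

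Alternatives were computed for 27 receptor genes, and signs turned for 7 of them. With single libraries left out, the log2 fold change ran from -0.13 to 0.13 for Gria4 (negative without cKO S8), from -0.25 to 0.024 for Grik5 (positive without cKO S5), from -0.28 to 0.18 for Gabbr2 (positive without control S7), from -0.078 to 0.85 for Chrm4 (negative without control S7, and -0.013 without control S6), from -0.61 to 0.39 for Htr2b (positive without control S1, and 0.15 without cKO S5), from -0.49 to 0.22 for P2rx7 (positive without control S7) and from -0.26 to 0.061 for P2ry1 (positive without cKO S8, and 0.012 and 0.023 without control S1 and S2). Htr2b was at 0.13 with limma-voom, and on log2(FPKM + 0.1) Chrm4 was at -0.035 and P2rx7 at 0.00091. No paired analysis was possible because the groups share no replicate number.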
